A study of Homo sapiens with 4 samples.

Results

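The genes described here encode the E2F transcription factors and the retinoblastoma family of pocket proteins that bind them. They are 7 E2F genes (E2F1, E2F2 and E2F3, known as activators, E2F4 and E2F5, the canonical repressors, and E2F7 and E2F8, the atypical repressors) and the 3 pocket protein genes RB1, RBL1 and RBL2. They were chosen by name, and all 10 were found among the 19475 gene symbols of the deposited table. For each gene, the RefSeq transcript whose mean over all 4 libraries was highest stands for the gene. SKOV3, an established line from a human ovarian carcinoma, was sequenced as cells on a tissue culture plate (TCP), placed at day 0 in the labels (2 libraries), and as tumor spheroids formed on a plate coated with polymer X, a polymer thin film, at day 8 (2 libraries). No genotype, strain or added agent distinguished the groups in the labels. The study's methods describe maintenance of SKOV3 with fetal bovine serum and spheroid culture with serum replacement, whereas the labels give serum replacement for every library, so the effects of substrate, time and possibly medium cannot be told apart. According to the methods, spheroids were taken apart with accutase from time to time while in culture. Nothing in the labels says that the 2 libraries of a group came from separate cultures, so the p-values measure the spread between these libraries, which may be technical.

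E2F factors bind DNA, most of them with a DP partner (TFDP1 or TFDP2), and control the genes of DNA replication and of the cell cycle. Pocket proteins bind E2F factors and hold their target genes off until kinases made of cyclins and cyclin-dependent kinases (CDKs) phosphorylate them. In resting cells, RBL2 (the protein p130) or RBL1 (p107) joins E2F4 or E2F5, a DP protein and the MuvB complex to form DREAM, a repressor of cell cycle genes, whereas in cycling cells MuvB works with MYBL2 and FOXM1. E2F1, E2F2, E2F7, E2F8 and RBL1 are themselves known to be transcribed under E2F control as cells enter the cell cycle.

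The values are FPKM, tag numbers divided by transcript length and by the size of the library, and the steps between the values put the libraries at 38403000 to 44917000 tags. Genes were tested with limma on log2(FPKM + 1), and each log2 fold change below is polymer X minus TCP on this scale, on which changes of weakly expressed genes come out too small. A gene is said to have risen or fallen where its adjusted p was under 0.05, and is called higher or lower where its log2 fold change was also at least 1 in size. Over the 11964 genes tested, TCP replicates correlated at 0.998 and polymer X replicates at 0.997, whereas libraries of different groups correlated at 0.854 to 0.862. The epithelial markers ERBB2, KRT8, KRT18, KRT7 and PAX8 lay above an FPKM of 1 in every library, whereas KRT19 and CDH1 lay below 1 in all of them and EPCAM reached 1 on polymer X only. Of the 7 markers of immune and endothelial cells, CD3E was at 0 in every library and 1, the lysosomal gene CD68, reached an FPKM of 1. The 7 markers summed to an FPKM of 17.2 to 17.4 on TCP and 43.7 to 46.2 on polymer X, and without CD68 the sum was at most 0.135 on TCP and 1.41 on polymer X. The rise of that rest was carried by the leukocyte marker PTPRC, at an FPKM of 0.005 and 0 on TCP and 0.468 and 0.530 on polymer X, and the endothelial marker PECAM1, at 0 in both TCP libraries and 0.573 and 0.458 on polymer X. The part of other cell types in the results below was not tested.

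In polymer X-cultured spheroids, 8 of the 10 genes fell relative to TCP-cultured cells, and E2F5 and RBL2 rose. The falls of E2F1, E2F7, RBL1 and E2F4 were large enough to be called lower, and no member was called higher. By this rule 9.45% of all tested genes were called lower and 10.7% higher. Without the fold change minimum, 81% of all tested genes passed, 43.6% lower and 37.4% higher, so that passing at this level is not particular to these genes. The FPKM of the groups did not overlap for any of the 10 genes, which also held for 90.4% of all tested genes. E2F2 passed the filter on low values (FPKM 1 or more in 2 or more libraries) through the TCP libraries alone, and the other members passed it in all 4. With 2 libraries in each group, the smallest two-sided p of an exact permutation test is 0.333, and the adjusted p-values therefore depend on limma's sharing of the spread between genes. In bulk RNA, fewer cells expressing a gene and less of its RNA per cell cannot be told apart.

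**Figure D1:**
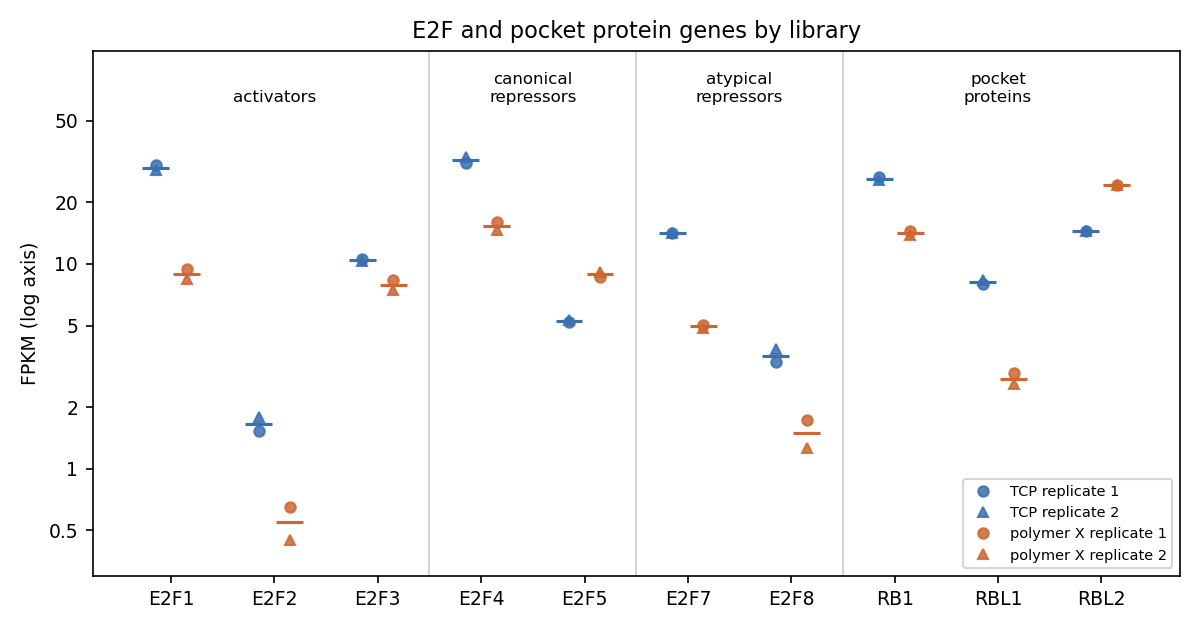
FPKM of each gene (log axis) in the 4 libraries, with circles for replicate 1, triangles for replicate 2 and lines for the mean of each group. The orange polymer X points lie below the blue TCP points for 8 genes and above them for E2F5 and RBL2.

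Among the activators, E2F1 fell most. E2F1 (NM_005225, hg19 chromosome 20, 32263292 to 32274210, minus strand) drives entry into DNA replication and was at an FPKM of 30.3 and 28.6 in the TCP libraries and 9.48 and 8.48 on polymer X. Both polymer X libraries lay well below both TCP libraries. The mean went from 29.5 ± 1.16 (SD, n = 2) to 8.98 ± 0.708 (SD, n = 2), 3.28-fold lower, with a log2 fold change of -1.61 ± 0.07 (SE; limma, adjusted p = 4e-08). Of all tested genes, 2.82% had a lower log2 fold change. E2F2 (NM_004091, chromosome 1, 23832920 to 23857712, minus strand), a close relative of E2F1, was at 1.52 and 1.78 on TCP and 0.651 and 0.450 on polymer X, from 415 tags in the library with most to 95 in the library with fewest. These are the lowest values of the family in either condition. The means differed 3.00-fold, close to the ratio for E2F1, whereas the log2 fold change was -0.78 (standard error 0.10, adjusted p = 5.7e-05 from limma) and became -1.44 with a pseudocount of 0.1, which made it a call. E2F3 (NM_001243076, chromosome 6, 20403910 to 20493945, plus strand), the activator that is present in resting as well as in cycling cells, was at 10.6 and 10.4 on TCP and 8.35 and 7.45 on polymer X. Its fall was the smallest of the family, 1.33-fold, with a log2 fold change of -0.37 ± 0.07 (SE; limma, adjusted p = 9.1e-04). The other E2F3 transcript listed, NM_001949, which starts further upstream and shares most of its exons, gave -0.40. GENCODE lists the pseudogenes E2F3P1, E2F3P2 and E2F4P1, and the values of E2F3 and E2F4 are uncertain as far as tags are shared with them.

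The canonical repressors E2F4 and E2F5 moved in opposite directions. E2F4 (NM_001950, chromosome 16, 67226068 to 67232821, plus strand), the most abundant E2F of resting cells in many tissues and the usual E2F of DREAM, was at an FPKM of 31.2 and 33.2 on TCP and 16.0 and 14.6 on polymer X. Its mean was 2.10-fold lower on polymer X, with a log2 fold change of -1.02 ± 0.06 (SE; limma, adjusted p = 5.2e-07). The call of E2F4 lay at the edge of the fold change minimum. It was lost without TCP replicate 2 (-0.98) and without polymer X replicate 2 (-0.96), and with libraries scaled to a common median (-0.98) or quantile normalized (-0.83). E2F5 (NM_001951, chromosome 8, 86089619 to 86126753, plus strand), which binds mainly RBL2, was at 5.21 and 5.32 on TCP and 8.65 and 9.17 on polymer X. The mean rose from 5.27 ± 0.077 (SD, n = 2) to 8.91 ± 0.366 (SD, n = 2), 1.69-fold, with a log2 fold change of 0.66 ± 0.07 (SE; limma, adjusted p = 1.2e-05). Its 3 transcripts gave values of 0.66 to 0.67. Tags were counted without regard to strand. Of the 5928 exon bases of all E2F5 transcripts in GENCODE, 969 are shared with exons of C8orf59 on the opposite strand. How many of these lie in NM_001951 was not determined. The FPKM of C8orf59 was 25.4 to 32.0 on TCP and 23.1 to 25.5 on polymer X. The part of its tags in the E2F5 value was not tested.

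The atypical repressors E2F7 and E2F8, which bind DNA without a DP partner or a pocket protein and repress E2F1 among other targets, both fell. E2F7 (NM_203394, chromosome 12, 77415026 to 77459360, minus strand) was at 14.2 and 14.1 on TCP and 5.04 and 4.89 on polymer X. The mean was 2.85-fold lower, with a log2 fold change of -1.35 ± 0.06 (SE; limma, adjusted p = 7.1e-08), and 4.56% of all tested genes had a lower value. E2F8 (NM_001256372, chromosome 11, 19245610 to 19263202, minus strand) was at 3.30 and 3.83 on TCP and 1.72 and 1.27 on polymer X. Its libraries within a group differed more than those of E2F7. The mean was 2.39-fold lower, with a log2 fold change of -0.88 ± 0.10 (SE; limma, adjusted p = 3.9e-05), short of a call. Taken singly, its 3 transcripts gave -0.90 to -0.87. E2F8 was called lower with a pseudocount of 0.1 (-1.21), with its 3 transcripts summed (-1.11), under quantile normalization (-1.17) and without polymer X replicate 1 (-1.01).

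The pocket protein genes also split. RB1 (NM_000321, chromosome 13, 48877883 to 49056026, plus strand), the retinoblastoma tumor suppressor that binds mainly the activators, was at an FPKM of 26.5 and 25.6 on TCP and 14.5 and 13.9 on polymer X. The mean was 1.83-fold lower, with a log2 fold change of -0.83 ± 0.06 (SE; limma, adjusted p = 1e-06), short of a call. RBL1 (NM_183404, chromosome 20, 35631977 to 35724618, minus strand), the pocket protein of cycling cells, was at 7.99 and 8.37 on TCP and 2.92 and 2.58 on polymer X. The mean was 2.97-fold lower, with a log2 fold change of -1.29 ± 0.08 (SE; limma, adjusted p = 3.1e-07). The 4 RBL1 transcripts listed gave -1.29 to -1.12. Of the 5954 exon bases of all RBL1 transcripts in GENCODE, 211 are shared with AL136172.1 on the opposite strand, and the part of its tags was not tested. RBL2 (NM_005611, chromosome 16, 53468351 to 53525560, plus strand), the pocket protein that accumulates in resting cells, was at 14.5 in both TCP libraries and at 24.3 and 24.4 on polymer X. The replicates lay closer together than those of any other member. RBL2 rose 1.68-fold, with a log2 fold change of 0.71 ± 0.06 (SE; limma, adjusted p = 2.1e-06), and its 5 transcripts gave 0.70 to 0.73. Of the 7320 exon bases of all RBL2 transcripts in GENCODE, 610 are shared with AKTIP and 721 with AC007342.6, both on the opposite strand. The FPKM of AKTIP was 7.73 to 8.00 on TCP and 12.1 to 12.9 on polymer X. The part of the tags of these genes in the RBL2 value was not tested.

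**Figure D2:**
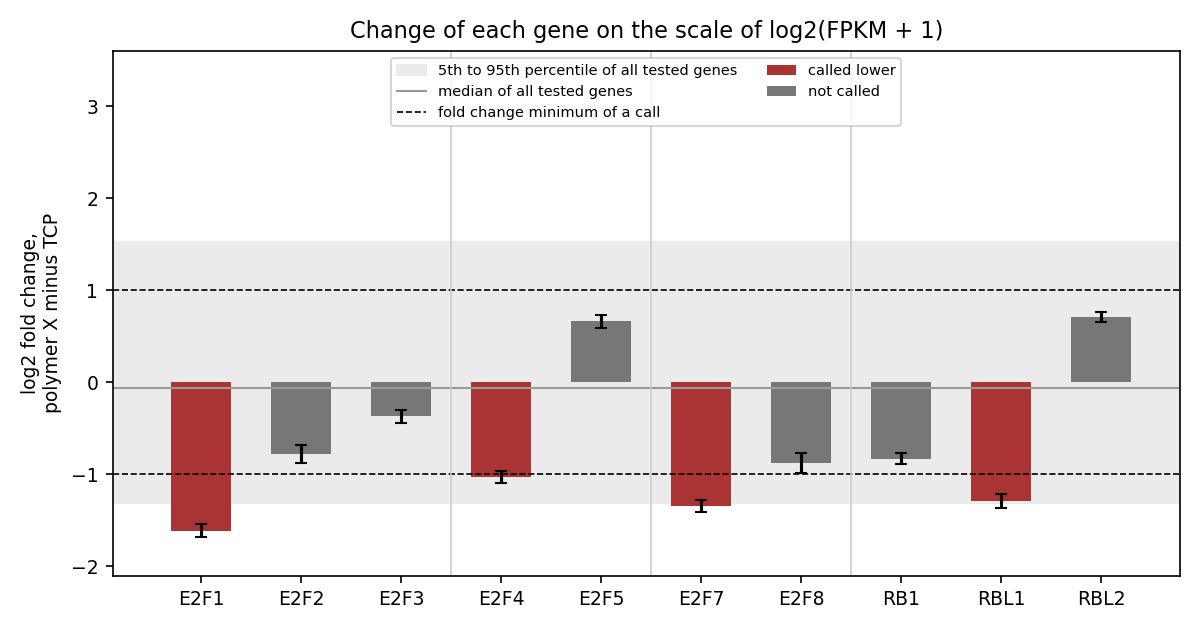
Log2 fold change (polymer X minus TCP, log2(FPKM + 1)) of the 10 genes, with bars for the limma estimate, error bars for its standard error and a shaded band from the 5th to the 95th percentile of all tested genes (-1.31 to 1.52). E2F1 and E2F7 lie below the band, RBL1 lies just inside it, and E2F5 and RBL2 are the bars above 0.

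Since FPKM is scaled to transcript length, the levels of the genes were compared within each condition. On TCP the order of the mean levels was E2F4, E2F1, RB1, RBL2, E2F7, E2F3, RBL1, E2F5, E2F8 and E2F2. In no neighboring pair of this order did the libraries overlap, although RBL2 and E2F7 differed by little, at 14.5 ± 0.027 and 14.2 ± 0.090 FPKM (SD, n = 2). On polymer X the order was RBL2, E2F4, RB1, E2F1, E2F5, E2F3, E2F7, RBL1, E2F8 and E2F2. There the libraries of E2F1 and E2F5 overlapped, and those of E2F4 and RB1 lay next to each other, at 14.6 to 16.0 and 13.9 to 14.5 FPKM. RBL2 moved from the fourth place to the first and E2F5 from the eighth to the fifth. Among all tested genes, the mean level of E2F1 went from the 82.2 to the 52.3 percentile, and that of RBL2 from the 65.1 to the 81.7 percentile.

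The classes of E2F genes were compared by their share of the summed FPKM of the 7 E2F genes, which was 96.8 ± 0.624 (SD, n = 2) on TCP and 48.1 ± 2.53 (SD, n = 2) on polymer X. The activators held 44.0% and 42.0% of the sum in the TCP libraries and 37.0% and 35.4% on polymer X. The canonical repressors held 37.8% and 39.6% on TCP and 49.4% and 51.4% on polymer X. The share of the canonical repressors was thus larger in both polymer X libraries, and the part of E2F5 in it went from 5.44% ± 0.045 to 18.6% ± 1.74 (SD, n = 2), whereas E2F4 went from 33.2% ± 1.21 to 31.8% ± 0.365 (SD, n = 2). The atypical repressors went from 18.3% ± 0.174 to 13.4% ± 0.189 (SD, n = 2). Within the activators, E2F1 went from 30.4% ± 1.39 to 18.6% ± 0.491 and E2F3 from 10.8% ± 0.215 to 16.4% ± 0.455 (SD, n = 2). E2F1 was 2.81 ± 0.073 times the level of E2F3 on TCP and 1.14 ± 0.0016 times on polymer X (SD, n = 2).

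On the log2 scale, the mean of the 3 activators lay below that of the canonical repressors by 0.54 and 0.59 in the TCP libraries, written as balances of -0.54 and -0.59, and the balances on polymer X were -1.23 and -1.37. The change of this balance was -0.74 ± 0.10 (SD from the replicates of both groups). Against the atypical repressors, the balance of the activators was 0.26 and 0.20 on TCP and 0.43 and 0.42 on polymer X, a change of 0.19 ± 0.046. Neither balance overlapped between the groups, and 90.4% of all tested genes did not overlap either. The mean of the activators changed by -0.92 and that of the canonical repressors by -0.18. E2F4 changed by -1.02, more than the mean of the activators though less than E2F1, and E2F5 by 0.66. On the scale of log2(FPKM + 1), the fall of the first balance thus came from E2F5. With a pseudocount of 0.1, E2F1, E2F2 and E2F3 changed by -1.70, -1.44 and -0.41, and E2F4 by -1.07. The part of E2F4 in the fall of this balance therefore depends on the pseudocount. E2F2, at an FPKM of 0.651 and 0.450 on polymer X, counts as 1 of the 3 activators. Both balances were described without a test, since the members of a class are not replicates. The classes did not separate the genes by direction, as the activators had log2 fold changes of -1.61 to -0.37 and the repressors of -1.35 to 0.66.

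The summed FPKM of the pocket protein genes changed less, from 48.7 ± 0.341 to 41.3 ± 0.643 (SD, n = 2). RB1 made up 54.1% and 52.8% of this sum in the TCP libraries and 34.8% and 34.0% on polymer X. RBL2 made up 29.6% and 30.0% on TCP and 58.2% and 59.7% on polymer X, so that the leading pocket protein transcript differed between the groups in every library. RBL1 went from 16.8% ± 0.669 to 6.66% ± 0.480 (SD, n = 2). The ratio of RB1 to RBL2 was 1.79 ± 0.047 on TCP and 0.584 ± 0.019 on polymer X, and that of RBL1 to RBL2 was 0.564 ± 0.0175 and 0.113 ± 0.010 (SD, n = 2).

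**Figure D3:**
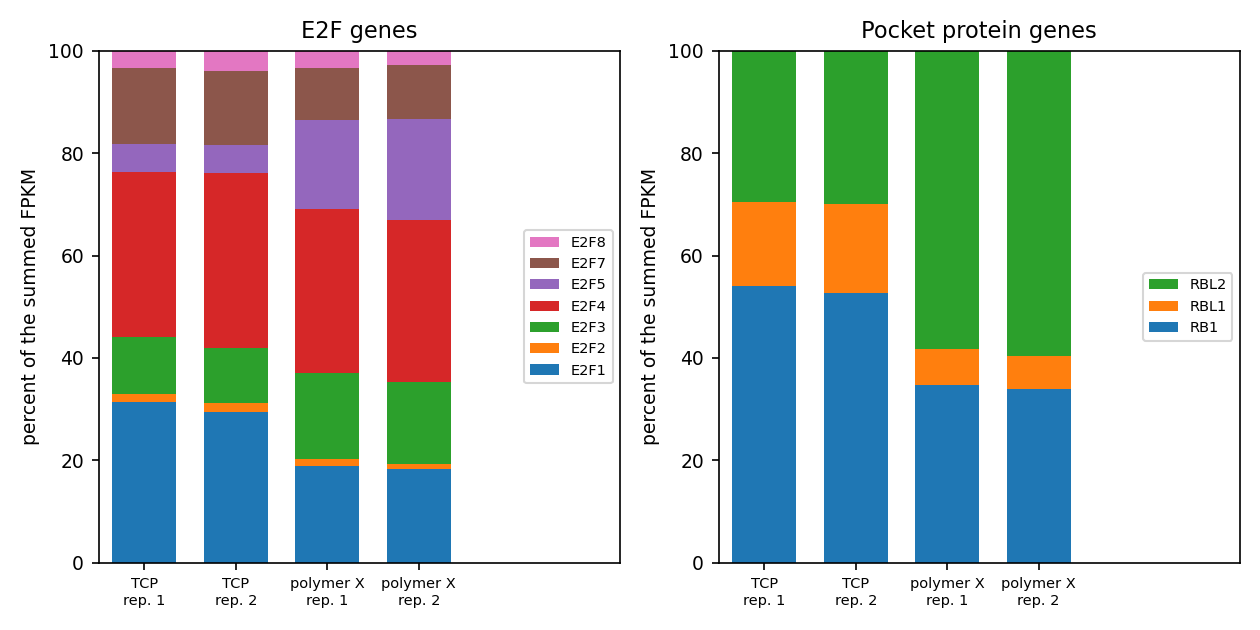
Percent of the summed FPKM that each gene held in each library, for the 7 E2F genes on the left and the 3 pocket protein genes on the right. RBL2 takes 58.2% and 59.7% of the pocket protein sum on polymer X against 29.6% and 30.0% on TCP, and E2F5 grows from 5.44% to 18.6% of the E2F sum.

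Since several members are known targets of E2F factors, promoter sequences were searched for E2F site words. RefSeq windows (GRCh38.p14) from 250 bases before to 50 after the start were used for 7 members (E2F1, E2F2, E2F3, E2F4, E2F7, RBL1 and RBL2). No window was used for E2F5 and E2F8, and that of RB1 was left out because by GENCODE v29 it lay 172724 bases from the start of NM_000321. The window of E2F3 lay 1800 bases from the start of the transcript measured here and nearer the longer one. The words TTTCCCGC, TTTCGCGC, TTTGCCGC and TTTGGCGC were searched on both strands. At least 1 of them was found in E2F1, E2F2, E2F3 and RBL1, in 4 of the 7 windows, against 3.33% of all 27305 promoter windows. None was found in E2F4, E2F7 or RBL2. The 100 bases before the start are printed for the 4 genes with a word, and for RBL2, which rose, and E2F4, which fell without holding one, with the words in capitals.
E2F1 (chr20:33686386-33686485, minus strand): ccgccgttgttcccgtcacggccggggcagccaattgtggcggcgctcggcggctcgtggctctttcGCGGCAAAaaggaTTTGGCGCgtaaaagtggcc
E2F2 (chr1:23531234-23531333, minus strand): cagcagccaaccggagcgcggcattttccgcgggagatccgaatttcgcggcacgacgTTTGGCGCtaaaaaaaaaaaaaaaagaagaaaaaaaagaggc
E2F3 (chr6:20401779-20401878, plus strand): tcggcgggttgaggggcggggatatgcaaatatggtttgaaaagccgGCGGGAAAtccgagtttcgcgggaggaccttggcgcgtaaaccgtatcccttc
RBL1 (chr20:37095998-37096097, minus strand): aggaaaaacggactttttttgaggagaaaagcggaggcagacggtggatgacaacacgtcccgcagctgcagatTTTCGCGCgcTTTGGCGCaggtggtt
RBL2 (chr16:53434371-53434470, plus strand): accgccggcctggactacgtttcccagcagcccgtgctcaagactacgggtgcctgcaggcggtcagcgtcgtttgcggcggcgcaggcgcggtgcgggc
E2F4 (chr16:67192055-67192154, plus strand): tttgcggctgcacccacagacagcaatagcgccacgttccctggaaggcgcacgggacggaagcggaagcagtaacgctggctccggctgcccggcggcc

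In E2F1 the words began 33 and 20 bases before the start, in RBL1 26 and 16, in E2F2 42 and in E2F3 53 bases before it, and none of them overlapped another. The 4 genes with a word fell by 0.37 to 1.61 on the log2 scale. E2F4 and E2F7 also fell, so that the presence of a word did not separate the genes that fell from the others. A match describes the letters of these windows, and the absence of one says nothing of other sequences or of binding.

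The DP partners of the E2F factors moved in opposite directions. TFDP1, the main DP partner, was at an FPKM of 47.0 and 46.8 on TCP and 20.2 and 18.3 on polymer X, and was called lower with a log2 fold change of -1.24 (adjusted p = 1.1e-07 from limma). TFDP2 was at 7.71 and 7.76 on TCP and 10.1 in both polymer X libraries, a log2 fold change of 0.35 (adjusted p = 5.4e-04 from limma). The ratio of TFDP1 to TFDP2 was 6.06 ± 0.046 on TCP and 1.90 ± 0.133 on polymer X (SD, n = 2).

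Of the 10 genes of the list of E2F partners and MuvB, 5 were called lower and 0 higher, with a median log2 fold change of -0.86, against -0.06 over all tested genes. Of all tested genes, 9.45% were called lower and 10.7% higher. The lists described here and below were written with earlier results of these data known, so their counts are no test. MYBL2, which joins MuvB in cycling cells, went from an FPKM of 114 ± 4.11 to 17.8 ± 0.877 (SD, n = 2), and FOXM1, its successor on MuvB, from 36.4 ± 3.00 to 5.98 ± 0.204 (SD, n = 2), with log2 fold changes of -2.61 and -2.42. The MuvB core subunits did not move together. LIN52 and LIN9 were called lower at -1.29 and -1.09, LIN54 fell by 0.62 on the log2 scale, and LIN37 and RBBP4 did not pass the test, at 0.11 (adjusted p = 0.18 from limma) and -0.13 (adjusted p = 0.065). E2F6, a repressor E2F that binds no pocket protein, was at 4.26 and 3.34 on TCP and 3.18 and 2.80 on polymer X, with a log2 fold change of -0.26 (adjusted p = 0.040 from limma).

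Upstream of the pocket proteins, 8 of the 9 cyclin and CDK genes could be tested. All of these fell, and 5 were called lower, with a median log2 fold change of -1.10. Under quantile normalization 3 of them were called. CDK6, a kinase that starts the phosphorylation of pocket proteins, went from an FPKM of 17.7 ± 0.634 to 4.75 ± 0.108 (SD, n = 2). Its relative CDK4 was not called, at -0.63, nor was CCND1, at -0.34, whereas CCND3 was called at -1.09. CDK2, which completes that phosphorylation, and its partners CCNE2 and CCNA2 were called lower at -1.17, -1.11 and -2.32, and CCNE1 was not called, at -0.43. CCND2 was listed at 0 in 3 libraries and was not tested.

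Among the CDK inhibitors, which keep pocket proteins active, 2 of the 5 genes tested were called higher and 0 lower, against 10.7% and 9.45% of all tested genes. CDKN1A (the protein p21) was at 3.00 and 2.33 on TCP and 12.4 in both polymer X libraries, a log2 fold change of 1.88 (adjusted p = 9.1e-08 from limma). CDKN1C (p57) was at 3.21 and 4.58 on TCP and 20.5 and 20.3 on polymer X, with a log2 fold change of 2.14. CDKN1B (p27) rose by 0.65 on the log2 scale, CDKN2C (p18) fell by 0.64, and CDKN2D (p19) did not pass the test, at -0.03 (adjusted p = 0.77 from limma). CDKN2B was at 0 in every library and CDKN2A in 3 of the 4, with an FPKM of 0.044 in the other.

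Of the 9 corepressors that pocket proteins recruit, 1 was called lower (11.1%, close to the 9.45% of all tested genes) and 0 higher. Their median log2 fold change was -0.12, and it was 0.0036 under quantile normalization. The gene called was SUV39H1, a histone methyltransferase, at 10.5 ± 0.467 FPKM on TCP and 2.45 ± 0.221 on polymer X (SD, n = 2), a log2 fold change of -1.73. The histone deacetylase genes HDAC1 and HDAC2 and SAP30, a subunit of their complex, had log2 fold changes of -0.32, -0.38 and -0.40. SIN3B, ARID4B and ARID4A rose by 0.42, 0.31 and 0.22, and SIN3A and KDM5A did not pass the test, at 0.01 and -0.12 (adjusted p = 0.86 and 0.21 from limma).

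The genes listed as targets of E2F factors or of MuvB were lower on polymer X. The lists were written with earlier results of these data known, so their counts are no test of such genes as a class. By the same rule 9.45% of all tested genes were called lower. Of 36 E2F targets of the transition from G1 to S phase, 32 were called lower and 0 higher, with a median log2 fold change of -1.68, and 36 of 36 had a negative value. TK1, CDC6 and MCM10, which serve nucleotide synthesis and the licensing and start of replication, had the largest changes on the log2(FPKM + 1) scale, at -2.53, -2.40 and -2.30. Of 25 targets of MuvB in G2 and M phase, 25 were called lower, with a median of -2.20, led on this scale by CDC20, PLK1 and AURKA at -3.71, -2.90 and -2.76. By the ratio of mean FPKM the order differed, with MCM10 (8.15-fold), CDC25A (7.07-fold) and ORC1 (6.33-fold) first in the G1/S list, and BUB1 (7.94-fold) ahead of AURKA (7.59-fold) in the G2/M list. CDC25A, ORC1 and BUB1 were named after their values were seen. CCNE1 and CCNE2 are in both the list of cyclins and CDKs and the G1/S list, and CCNA2 is in both the former and the G2/M list, so these counts are not independent. By the same search for words, 17 of 30 G1/S targets held an E2F word (56.7%, against 3.33% of all windows) and 2 of 20 G2/M targets did (10.0%). Unlike those of the members, these windows were not checked for their distance to the start of the transcript measured. The word TTTGAA, known from the CHR element of MuvB targets, was found on either strand in 13 of those 20 (65.0%) and in 1 of the 30 (3.33%), against 15.4% of all windows. Both lists hold genes known as targets of these factors. A high share of the matching words could therefore follow from the choice of genes and is no test. Among the members, TTTGAA was found in E2F3, which also held an E2F word without overlap, and in RBL2.

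**Figure D4:**
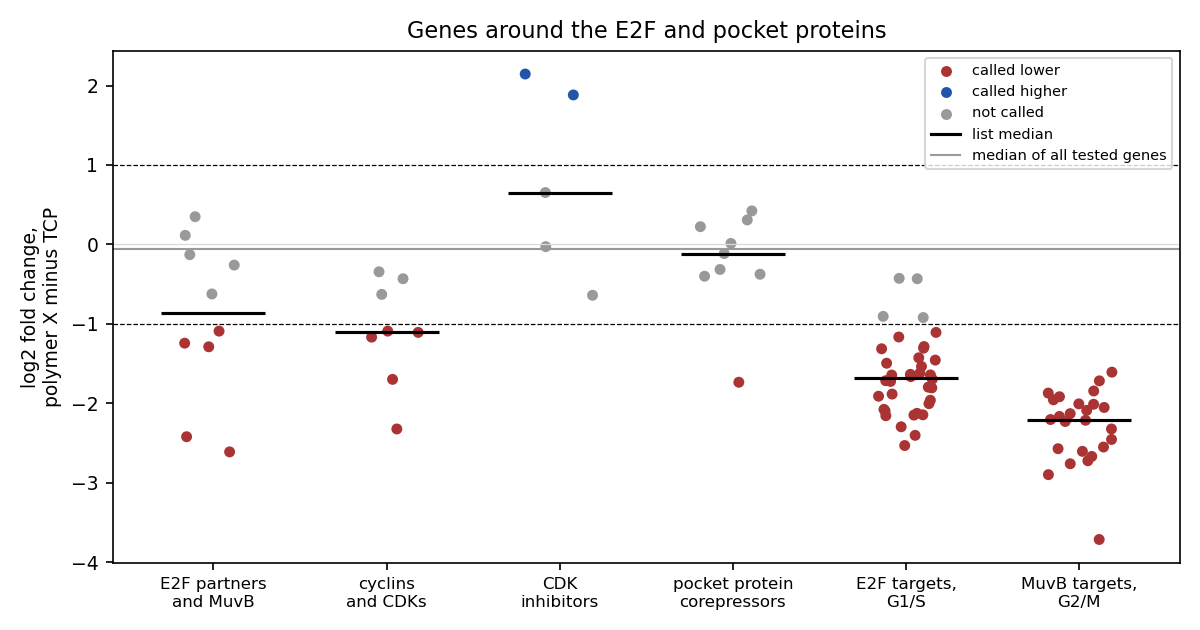
Log2 fold change (polymer X minus TCP, log2(FPKM + 1)) of each tested gene of 6 lists, 1 point per gene, with black lines for the list medians and dashed lines at the fold change minimum. The 25 G2/M targets lie below -1, the CDK inhibitors CDKN1A and CDKN1C lie above 1, and the median of the corepressors (-0.12) lies close to that of all tested genes (-0.06).

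Between the replicates on polymer X, each of the 8 members that fell was lower in replicate 2 than in replicate 1, and both members that rose were higher in it. Among all tested genes, 63.8% were lower in polymer X replicate 2, as were 70.7% of the genes called lower and 47.1% of the genes called higher. The difference between the polymer X replicates thus ran in the direction of the difference between the groups for every member. It was small for some members, such as RBL2 at 24.324 and 24.373 FPKM and E2F7 at 5.043 and 4.889. By arithmetic alone, the fold change of each member was therefore larger in size without polymer X replicate 1 than without polymer X replicate 2. On TCP, 4 of the 8 members that fell were lower in replicate 2, and both members that rose were higher in it, as on polymer X.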

How the data were processed

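RNA-seq of SKOV3 was analysed in 4 libraries. The authors deposited FPKM values for 50078 RefSeq transcripts, made with HOMER on hg19 from tags on exons of both strands and rounded to 3 decimals. The submitters' processing notes name STAR 2.4.0, HOMER and DESeq without roles. The labels describe a directional kit, but counting did not use strand. FPKM times transcript length fell on whole multiples of 1 tag (within 0.1 for 100% of the low values used), which gave the tags per library. Members had 95 to 5448 tags. The replicates differed by more than counting error (mean chi-square per gene 5.46 on TCP and 6.42 on polymer X).

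Each symbol was represented by its transcript of highest mean. Genes that reached FPKM 1 in 2 or more libraries entered the test, made on log2(FPKM + 1) in limma 3.58.1 (R 4.3.3) with a mean-variance trend, Benjamini-Hochberg adjustment over 11964 genes and no block. Alternatives were another pseudocount, filter, scaling, fold change minimum, variance model and transcript rule, a replicate block and each library left out. The procedure was tested on simulated data with counting error and a set, independent spread between libraries, which need not match that of these replicates. The members and lists were chosen with earlier results of these data known, and the lists were written from general knowledge. The text names all members, any gene of the 4 short lists and the 3 called genes with the largest change of each target list. Exon overlaps and pseudogenes came from GENCODE v29, and promoters from RefSeq (GRCh38.p14). Plots were drawn with matplotlib 3.10.9.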

Additional observations from a re-analysis of the deposited data

How the results depend on the processing

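Of the 118 values of single members under an alternative, 108 kept their direction and side of the threshold, 4 lost the call, 6 gained it and 0 changed sign. The alternatives that changed the fold change minimum are not among these 118 values, and their counts are given below. E2F2 was called with a pseudocount of 0.1 (-1.44) and quantile normalization (-1.19). E2F4 lost its call under quantile normalization (-0.83) and median scaling (-0.98). E2F8 gained one with a pseudocount of 0.1 (-1.21), quantile normalization (-1.17) and summed transcripts (-1.11). Its 3 transcripts taken singly gave -0.90 to -0.87. The cause of these changes in calls was not tested. E2F2 and E2F8 could not be fitted where a mean FPKM of 5 was required. Over the alternatives, the adjusted p of the members (limma, Benjamini-Hochberg) reached at most 0.0074, for E2F3. The change of the balance against canonical repressors was -1.02 with a pseudocount of 0.1 and -0.91 under quantile normalization, and that against atypical repressors 0.25 under quantile normalization and 0.30 with summed transcripts.

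Without a fold change minimum, 4477 of all genes were higher and 5212 lower, and of the members 2 were higher and 8 lower. The lists then had 1 partner or MuvB gene higher and 7 lower, 8 cyclins or CDKs lower, and 3 CDK inhibitors higher and 1 lower. Of the corepressors 3 were higher and 4 lower, and 36 G1/S and 25 G2/M targets were lower. With a fold change minimum of 2 on the log2 scale, 281 of all genes were higher and 150 lower, and 0 members were lower. The lists then had 2 partner or MuvB genes, 1 cyclin, 0 corepressors, 10 G1/S targets and 19 G2/M targets lower and 1 CDK inhibitor higher. Where a mean FPKM of 5 was required, which leaves fewer genes to test, 702 of all genes were higher and 3 partner or MuvB genes lower. Quantile normalization left 3 cyclins and CDKs lower and turned the median of the corepressors to 0.0036.

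With each library left out in turn, where the lone library is assumed to vary like the others, 3 to 5 members were lower. The log2 fold changes ranged from -1.68 to -1.54 for E2F1, -0.87 to -0.68 for E2F2, -0.44 to -0.30 for E2F3, -1.09 to -0.96 for E2F4, 0.62 to 0.70 for E2F5, -1.36 to -1.33 for E2F7, -1.01 to -0.74 for E2F8, -0.86 to -0.80 for RB1, -1.36 to -1.23 for RBL1 and 0.71 for RBL2. With the replicate number as a block, 1285 of all genes were higher and 1131 lower, as without it, and the same members were called. Libraries that share a replicate number deviated from their group means with a correlation of 0.093, so no pairing was assumed. CDKN2A, CDKN2B and CCND2 had 0 to 4 tags in a library and were not tested, and at such counts low expression and absence cannot be told apart.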
